A study of Strophostyles helvola with 12 samples.

Results

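The genes described here had reads in roots of the Beach genotype of Strophostyles helvola and few or none in roots of the Inland genotype. Their number was 59 of the 27191 common bean gene identifiers in the count table (0.217%). They were chosen by their measured levels in CPM (the reads on a gene per 1000000 counted reads of its library). The mean CPM plus 0.5 had to be at least 16 times higher in Beach than in Inland, both between the control groups and between the treatment groups, and the mean of the 4 group values had to be below 800. The last limit removed 0 genes. Another 28 genes reached 16 in 1 of the conditions alone, 11 under control and 17 under treatment.

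Strophostyles helvola, the sand bean, is a wild legume related to common bean. The Beach genotype came from the coast at Wilmington, North Carolina, and the Inland genotype from Missouri, so each habitat was represented by 1 genotype. Whole roots of seedlings labelled as 10 d old were collected 3 h, 24 h and 7 d after the final dose had been reached. Each of the 12 libraries combined roots of 3 plants, 1 from each time, and each of the 4 groups had 3 libraries. Control plants of both genotypes received water. Treated Beach plants received 400 mM NaCl and treated Inland plants 200 mM NaCl, so dose and genotype cannot be told apart in the response to salt.

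A gene whose transcript is found in 1 genotype and hardly at all in another of the same species may be missing from the genome of the second genotype, may be present and not transcribed, or may differ so much in sequence that its reads do not align to the reference. Here the reference for Beach and Inland reads alike was the genome of common bean, another species, and these 3 states give the same low count. They cannot be told apart from the counts. The table gives neither names nor functions for the identifiers, and no annotation was used here, so the members are described by their levels, their order among the identifiers and their response to salt. Salt around roots limits the uptake of water and brings sodium into the plant, and roots are the organ that meets both first. Root marker genes were not checked.

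Libraries held between 29205979 and 41330498 counts, with smaller totals in the Beach libraries than in every Inland library. The RNA integrity numbers listed for the libraries were lower in each treated Beach library than in each Beach control, and their part in the response to salt was not tested. Beach control replicate 1 stood apart from the other Beach controls. The study's sample list gives it the lowest GC content of all libraries. Among the Beach controls it also had the lowest share of reads aligned to 1 place. Whether these differences bear on its counts was not tested. Of the 16154 genes tested in Beach, 8.47% lay more than 1.5-fold above or below both other controls in that library, against 0.941% in replicate 2 and 0.669% in replicate 3.

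The members were not a group of weakly expressed genes. Their mean over the 6 Beach libraries ran from 10.2 to 884 CPM, with a median of 59.3. The rule itself required a mean of at least 7.5 CPM in both Beach groups, and the 13639 genes at or above that level had a median of 36.5 CPM. Of the members, 18 (30.5%) averaged 100 CPM or more, against 17.2% of those genes. Another 32 members lay between 20 and 100 CPM and 9 below 20 CPM. The amount that the rule added to the mean CPM also favoured high levels. To reach the ratio, a weakly expressed gene needed an Inland level that was a smaller part of its Beach level. The comparisons with the genes at or above 7.5 CPM therefore cannot separate the levels of the members from the rule. All 59 had counts in all 6 Beach libraries. Together they took 6103 to 6460 CPM of each Beach control library and 5077 to 5215 CPM of each Beach treatment library. In the Inland libraries the sum was 34.9 to 37.7 CPM. These values describe the rule and were not tested.

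**Figure D1:**
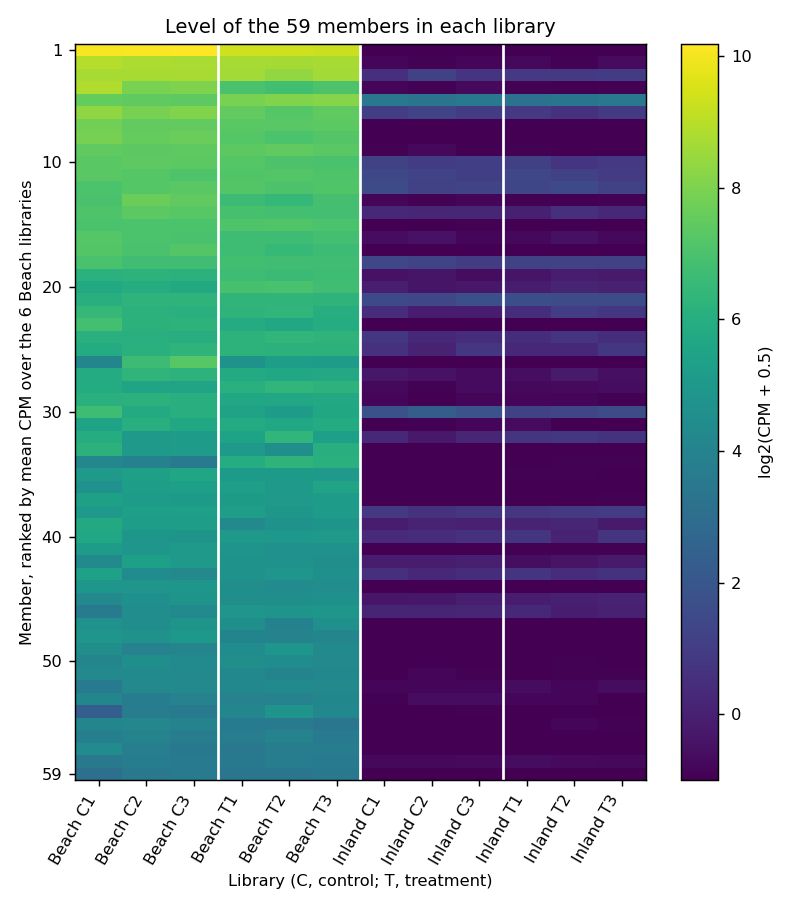
The level of each of the 59 members (rows, ranked by mean CPM over the 6 Beach libraries) in each of the 12 libraries (columns), as log2(CPM + 0.5). Every row is brighter in each of the 6 Beach columns than in any of the 6 Inland columns. The Inland columns are dark for most members, and a minority of rows keep a faint level in all 6 Inland libraries.

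In Inland roots the members fell into 3 kinds. For 15 members no count was recorded in any of the 6 Inland libraries. A further 15 had 1 to 16 counts in all 6 Inland libraries together and none in at least 1 library, of which 8 had no more than 3 counts in total. The remaining 29 had counts in every Inland library, 15 to 2234 over the 6 libraries. Their Inland mean was 0.0148% to 4.73% of their Beach mean, with a median of 1.27%. For the 15 members without any Inland count, 3 counts in each Inland library correspond to 0.0807 CPM on average. This is the number that a count of 0 allows by chance in 1 library taken alone, and 0 in all 6 together allows less. Against 0.0807 CPM the Beach mean was at least 127-fold higher for the lowest of the 15 and at least 10957-fold higher for the highest. These limits cover counting error only.

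A high Beach level did not always go with a measurable Inland level. Phvul.010G063600 had the highest Beach level of all members, with 1072, 1118 and 1163 CPM in the Beach controls and 668, 659 and 625 CPM in the treated Beach libraries, and 0 counts in each of the 6 Inland libraries. Phvul.005G095500, the next highest, had 486, 451 and 435 CPM in the Beach controls and 415, 404 and 415 CPM under treatment. Its Inland libraries held 1 to 5 counts each. Phvul.002G098300, with 186, 177 and 167 CPM in the Beach controls, had the highest Inland level of the members, 10.5, 9.29 and 10.9 CPM under control and 8.72, 9.56 and 10.6 CPM under treatment. The member with the most Inland counts thus had a lower Beach level than a member with none. Phvul.002G099400 had 0 Inland counts as well, with 223, 182 and 182 CPM in the Beach controls and 159, 158 and 165 CPM under treatment. It had the next highest Beach level among the 15 members without an Inland count.

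The member nearest to the limit of the rule had a smaller ratio of 16.2, and the next one 16.5. The genes closest to it from below had smaller ratios of 15.1 and 14.9. The median ratio over the members was 58.4 under control and 53.2 under treatment.

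The position of the members among the identifiers was not used by the rule. Common bean identifiers carry a chromosome number and a number that rises along it, and the rank of an identifier within its chromosome was taken from the latter. These ranks are an order, not genome coordinates. Of the 59 members, 58 carried a chromosome number, and they lay on 10 of the 11 chromosomes. There was no member on chromosome 9, although 1798 of its genes were expressed, that is, exceeded 5 CPM in 3 or more of the 12 libraries. A stretch was taken as all identifiers from the first to the last member on a chromosome, with no limit on gaps inside it. On each of the 10 chromosomes this stretch was a limited part of the order once 1 gene was set aside. This exception, Phvul.003G009200, lay 815 identifiers from the next member on chromosome 3. It had 19.7, 39.2 and 33.1 CPM in the Beach controls, 25.8, 25.7 and 23.3 CPM in the treated Beach libraries and 0.172 to 0.482 CPM in the Inland libraries, and was singled out after its place had been seen. Its log2 fold change between treatment and control in Beach was -0.28 with all libraries (edgeR fdr = 0.373) and -0.51 without Beach control replicate 1 (edgeR fdr = 0.00600).

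The stretches holding the other 57 members spanned 28 to 304 identifiers each, 0.839% to 14.0% of the identifiers of their chromosome. They covered 6.64% of all numbered identifiers. On chromosome 1 the stretch with 5 members ran from 30.5% to 40.1% of the order, on chromosome 5 the stretch with 8 members from 43.3% to 56.1%, and on chromosome 8 the stretch with 8 members from 42.1% to 52.3%. On chromosome 10 there were 7 members between 38.3% and 49.9%. Chromosomes 4, 7 and 11 held 6 members each, between 48.1% and 58.4%, between 43.5% and 46.7% and between 51.6% and 65.6%. Chromosome 2 had 3 members within 28 identifiers, at 28.96% to 29.8%, and chromosome 3 had 3 within 37 identifiers, at 30.5% to 31.7%. On chromosome 6 the 5 members were near the start of the order, from 2.18% to 9.30%. No members were found beyond 70% of the order of any chromosome, where 31.5% of the numbered genes tested in Beach lay. The last member lay at 65.6%. The cut of 70% lies just past it and was set neither by the rule nor before the positions were seen.

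**Figure D2:**
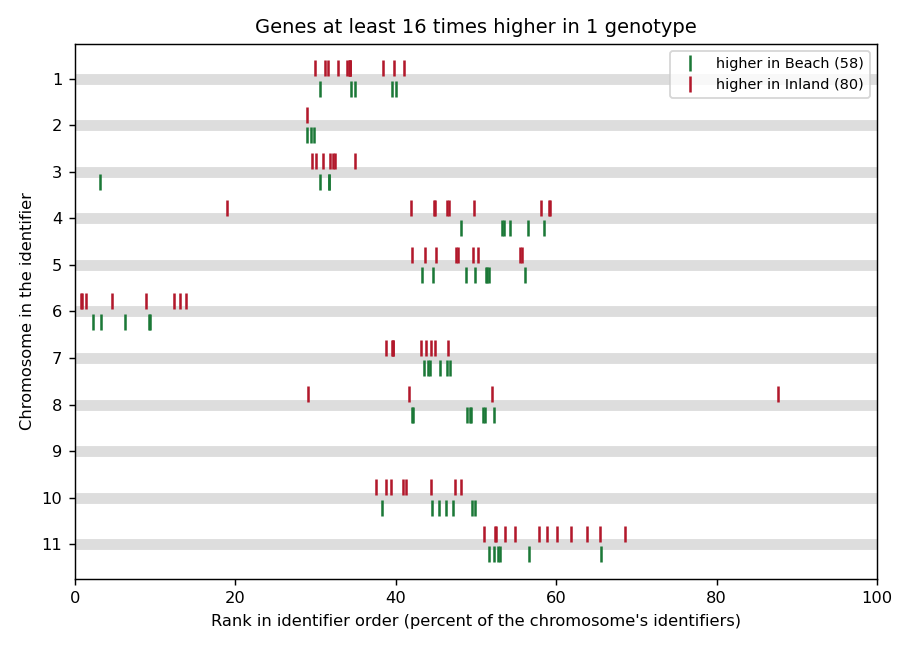
Rank of each gene in the identifier order of its chromosome, as a percentage of that chromosome's identifiers, for the 58 numbered members (green, below each line) and the 80 numbered genes at least 16 times higher in Inland under both conditions (red, above each line). Of the 80 genes high in Inland, 45 (56.25%) lie inside the stretches of the members, the others lie outside them, and chromosome 9 has neither set.

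The members did not form unbroken blocks. Neighbouring members on a chromosome were 2 to 815 identifiers apart, with a median of 18.5, and no pair was adjacent. Some stretches held wide gaps. No member lay between ranks 1236 and 1433 on chromosome 8, or between ranks 1228 and 1422 on chromosome 11. The stretches held 867 expressed genes, of which the members were 6.57%. Of the 867, members included, 572 (66.0%) had a ratio below 2 in either direction under both conditions. By the rule no member can be among these 572, which lowers the share. Most of the genes between the members were thus expressed at similar levels in both genotypes. Over all expressed genes with a chromosome number, members included, the share with a ratio below 2 was 88.1%.

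Genes that were high in Inland instead lay close to the members. With the rule turned around, 81 genes were at least 16 times higher in Inland under both conditions, and 80 of them carried a chromosome number. Inside the stretches of the members lay 45 of these 80 genes (56.25%), against 5.14% of the expressed genes with a chromosome number. A member lay within 50 identifiers of 63 of these 80 genes (78.8%), and of 50 of the 58 numbered members another member did (86.2%). Among all 16878 expressed genes with a chromosome number the share was 7.81%. In both directions it was larger at ratios of 8 or more than at ratios of 2 to 4. Where the smaller ratio was 8 to 16 it was 78.6% of 28 genes higher in Beach and 82.1% of 28 genes higher in Inland. It was 41.1% of 56 genes and 44.0% of 50 genes at ratios of 4 to 8, and 20.2% of 183 genes and 16.1% of 192 genes at ratios of 2 to 4. Of the 14863 genes with a ratio below 2 under both conditions, 6.24% lay within 50 identifiers of a member. Genes close to each other in the order are not independent, and these shares are a description without a test.

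**Figure D3:**
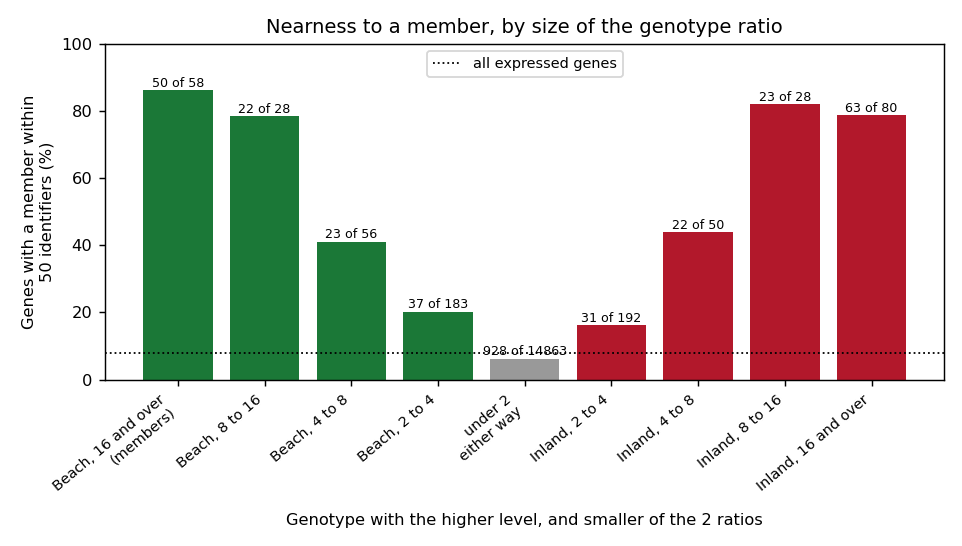
Share of genes that have a member within 50 identifiers on the same chromosome, by which genotype had the higher level and by the smaller of the ratios under control and treatment. The dotted line marks 7.81% of all expressed genes, the lowest bar is 6.24% at ratios below 2, and the bars at ratios of 8 or more lie between 78.6% and 86.2% in either direction.

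Few members responded strongly to salt in Beach roots. Treatment was compared with control in the 6 Beach libraries with edgeR's quasi-likelihood test over all 16154 genes that exceeded 5 CPM in 3 or more of them. To pass, a gene needed a 2-fold change or more with an fdr no higher than 0.05. All 59 members were tested. Of these, 3 rose (5.08%, against 6.75% of all genes tested) and 1 fell (1.69%, against 5.75%). In either direction 6.78% of the members passed, against 12.5% of all genes. By the fdr alone 8 members were higher (13.6%, against 20.5% of all genes) and 17 lower (28.8%, against 23.1%). Without Beach control replicate 1 these counts were 10 (16.9%, against 26.9% of all genes) and 21 (35.6%, against 26.3%). The ratio of treatment to control was not used by the rule. The rule nevertheless excluded genes that salt brings down to, or up from, less than 7.5 CPM in Beach, which limits the changes a member can show.

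The median log2 fold change was -0.10 over the members and -0.02 over all genes tested, and 41 members (69.5%) changed by less than 0.5 on the log2 scale, against 68.0% of all genes. The treated and control Beach libraries did not overlap for 10 members with higher and 22 with lower values under treatment, 27 overlapped, and among all genes tested 27.2% did not overlap with higher and 31.5% with lower values. The 16 members that were lower by the fdr but changed by less than 2-fold had log2 fold changes from -0.82 to -0.29, and the 5 higher ones from 0.26 to 0.68.

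**Figure D4:**
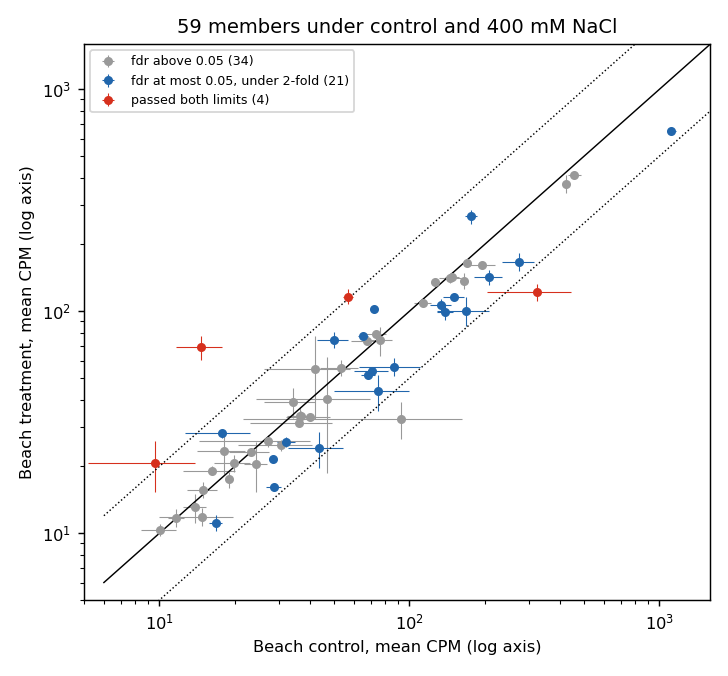
Mean CPM of each of the 59 members in Beach control (x axis) and Beach treatment with 400 mM NaCl (y axis), both log axes, with the SD of 3 libraries as bars. The solid line marks equal levels and the dotted lines a 2-fold difference, and of the 4 members that passed both limits (red) 3 lie above the solid line and 1 below it.

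The largest rise was that of Phvul.010G076700. It had 17.8, 14.7 and 11.6 CPM in the Beach controls and 60.2, 77.6 and 68.6 CPM in the treated Beach libraries, so that every treated library was above every control. The log2 change was 2.25 (standard error 0.17, edgeR fdr = 0.000121). In Inland it had 0 counts in 4 libraries and 1 count in each of 2 treated libraries. Leaving out each Beach library in turn kept the log2 fold change between 2.11 and 2.42.

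Phvul.006G013900 had 4.54, 12.3 and 11.9 CPM in the Beach controls and 17.3, 26.7 and 18.02 CPM in the treated Beach libraries. Its lowest control was replicate 1. The log2 fold change was 1.13 (standard error 0.38, edgeR fdr = 0.0444), close to both limits. It passed without Beach control replicate 2 and with no other library left out. Without control replicate 1 the log2 fold change was 0.80, and over all 6 omissions the edgeR fdr was 0.0192 to 0.149. In Inland there was 1 count over the 6 libraries.

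The third of the members that rose, at 56.9 ± 2.81 CPM in Beach control and 116 ± 9.05 CPM in Beach treatment (SD, n = 3), rose by 1.05 on the log2 scale (standard error 0.10, edgeR fdr = 0.000241). It stood at the limit of 2-fold, and without Beach treatment replicate 2 its log2 fold change was 0.998. It averaged 0.444 CPM in Inland.

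The member that fell was Phvul.005G096200, with 462, 246 and 263 CPM in the Beach controls and 123, 111 and 132 CPM in the treated Beach libraries. All treated libraries were below all controls, and control replicate 1 was the highest by a wide margin. The log2 fold change was -1.38 (standard error 0.23, edgeR fdr = 0.00288), or between -1.54 and -1.04 with a library left out. Its Inland libraries held 0 to 4 counts each.

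Of the members named for their levels, Phvul.010G063600 went from 1118 ± 45.8 to 651 ± 22.6 CPM in Beach (SD, n = 3), with no overlap between the groups. Its log2 change of -0.76 (SE 0.09, edgeR fdr = 0.000847) did not reach 2-fold. Phvul.005G095500 had a log2 change of -0.13 (SE 0.08, edgeR fdr = 0.233) and Phvul.002G099400 one of -0.26 (standard error 0.10, edgeR fdr = 0.0631). Phvul.002G098300 was higher under treatment, at 247, 271 and 284 CPM, a log2 difference of 0.62 (standard error 0.09, edgeR fdr = 0.00160) which also stayed under 2-fold.

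**Figure D5:**
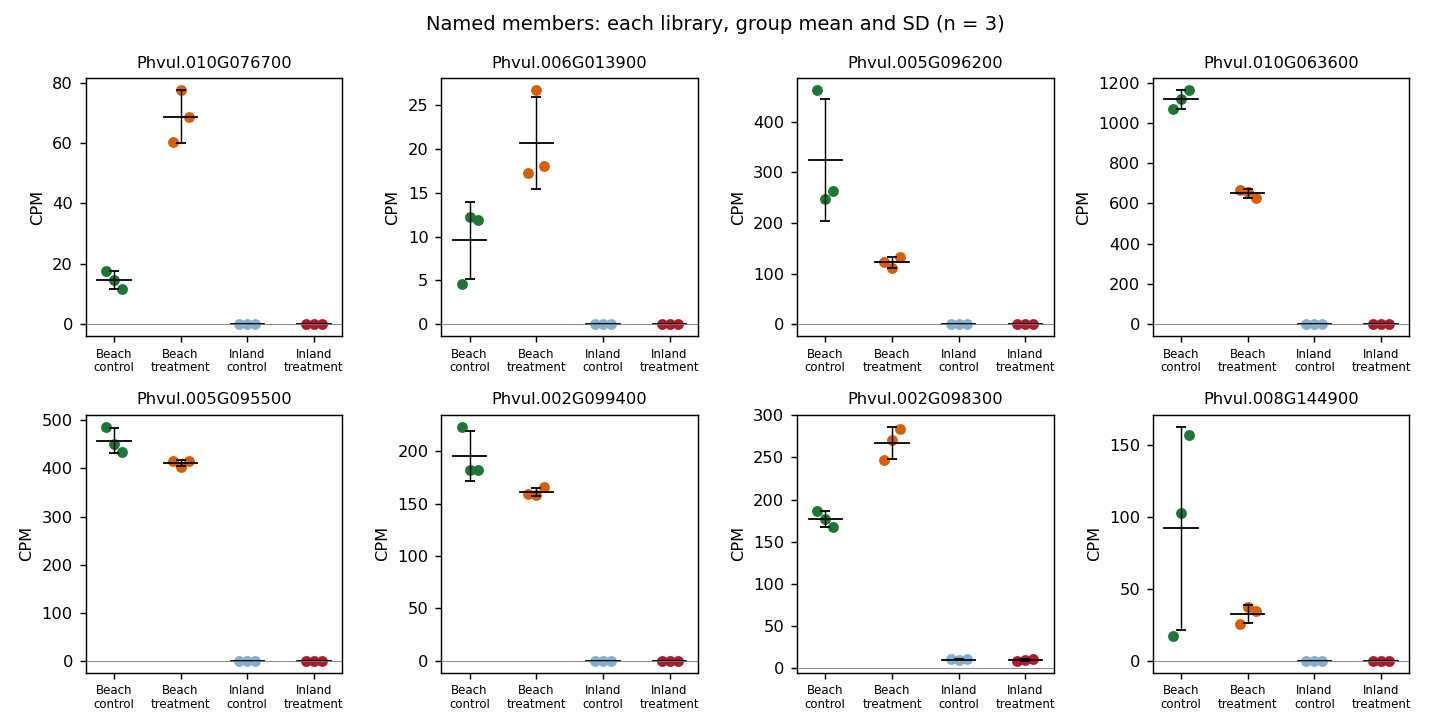
CPM of 8 named members in each library (points, 3 per group), with group means (lines) and SDs (bars). The Inland points lie at or near 0 in all panels, except for Phvul.002G098300 with Inland values from 8.72 to 10.9 CPM. Beach control replicate 1 is the leftmost point of its group. It lies more than 1.5-fold from both other controls in Phvul.006G013900, Phvul.005G096200 and Phvul.008G144900.

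The highest member also weighed on the sum of all members. Its share of the members' CPM was 16.6% to 18.8% in the Beach controls and 11.99% to 13.0% in the treated Beach libraries. Summed over all 59, the level was 6254 ± 185 CPM in Beach control and 5162 ± 73.8 CPM in Beach treatment (SD, n = 3). Without the highest member the sums were 5136 ± 220 and 4511 ± 86.6 CPM, and the groups still did not overlap. An exact permutation test of 3 libraries against 3 cannot give a p below 0.1, and none is given for a sum over genes chosen on these libraries. In Inland the sums of 36.6 ± 1.16 CPM under control and 36.0 ± 1.17 CPM under treatment overlapped.

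The median coefficient of variation (SD divided by the mean) was 12.2% in Beach control and 7.71% in Beach treatment for the members, and 11.5% and 6.66% for all genes tested. It exceeded 30% in Beach control for 10 members (16.9%, against 7.55% of all genes) and in Beach treatment for 2 (3.39%, against 2.86%). Beach control replicate 1 lay more than 1.5-fold from both other controls for 14 members (23.7%, against 8.47% of all genes tested), above them for 8 and below for 6. For replicate 2 this held for 0 members and for replicate 3 for 1. The widest spread was that of Phvul.008G144900, named here after its values had been seen. It had 17.1, 103 and 157 CPM in the Beach controls, 25.8, 37.7 and 34.7 CPM in the treated Beach libraries and 0 counts in Inland. With all libraries its log2 fold change of -1.48 did not pass (standard error 0.66, edgeR fdr = 0.110). Without control replicate 1 it was -1.96 and passed (edgeR fdr = 0.000787). Without that library 2 members rose and 2 fell, in place of 3 and 1.

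In Inland roots the filter on low counts left 1 member to be tested, although 19 had more than 100 counts over the 6 Inland libraries. Only Phvul.002G098300 exceeded 5 CPM in 3 or more Inland libraries, and it did not pass between 200 mM NaCl and control (log2 fold change -0.17, standard error 0.11, edgeR fdr = 0.254). Over the 29 members with counts in every Inland library, the ratio of the treatment to the control mean was 0.614 to 2.11, with a median of 1.07. All 81 genes high in Inland were tested in Inland, and 6 passed (7.41%, against 7.48% of all genes tested). Of the 81, 0 rose (against 3.38% of all genes) and 6 fell (7.41%, against 4.10%), and 21 of the 81 had 0 counts in all 6 Beach libraries.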

How the data were processed

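Whole roots of 2 Strophostyles helvola genotypes were sequenced as 125 bp single reads in 12 libraries. Per the labels and the study's methods, the authors trimmed reads with Trimmomatic 0.36, aligned them to the common bean genome Pvulgaris_218_v1.0 with STAR and used featureCounts to count, per gene, reads on exons that aligned to 1 place. No versions of these and no strand option are given. The deposited value is a raw count per gene and library. All 12 columns were used. RNA integrity, GC content and the share of reads aligned to 1 place were taken from the study's sample list.

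Counts were scaled to CPM by library totals for the rule and all levels. For the response to salt, genes that exceeded 5 CPM in 3 or more libraries of a genotype were kept, scaled by TMM and tested with edgeR 4.0.16 (limma 3.58.1, R 4.3.3), with Benjamini-Hochberg adjustment over all genes. DESeq2 1.42.0 and edgeR's exact test were alternatives. Standard errors were derived from the F statistic. The steps were tested on simulated data. Python 3.11.15, pandas 2.3.3, numpy 2.4.6, scipy 1.17.1 and matplotlib 3.10.9 were used for the rest.

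The members and lists were chosen with earlier results of these data known. Named were the 2 largest rises and falls among members that passed without overlap (1 fell), and up to 2 members each, not passing, with the highest Beach level or with 0 Inland counts. Others were added as stated. Further identifiers were not printed, since the table does not name them. The contrast of Beach with Inland chose the members and was not tested. No library was a copy of another in its group (chi-square divided by its degrees of freedom, 11.6 to 59.4). Deviations from the group means correlated at -0.162 to 0.118 between equally numbered libraries, 3 of 18 above 0.1, so replicate numbers were not used as pairs.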

Additional observations from a re-analysis of the deposited data

How the results depend on the processing

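With edgeR's exact test, DESeq2, library totals, DESeq2's size factors, both other filters on low counts, all 12 libraries in one fit or the replicate number as a block, 3 members rose and 1 fell in Beach, the same genes each time. Without the minimum on fold change 8 were higher and 17 lower. With each Beach library left out, 1 to 3 rose and 1 to 2 fell. The lowest count, 1, came without treatment replicate 2, and 2 fell without control replicate 1. Over all genes 1090 rose and 929 fell as reported, 1099 and 928 with the block, 1796 and 1596 without a filter on low counts, and 3317 and 3730 without the minimum on fold change. No member passed in Inland under the 12 alternatives run there, but all except 1 of them tested only 1 member. The fit without a filter on low counts tested 44. By the fdr alone it had 1 member higher (2.27%, against 14.0% of all genes) and 1 lower (2.27%, against 13.4%). The rule keeps Inland counts low, and few counts limit what can pass. These shares therefore cannot show whether the members respond less than other genes. The rule gave 66 members with 0.25 added to the mean CPM, 46 with 1 added, 87 at a ratio of 8, 41 at 32, 57 with TMM scaling and 57 to 60 with a library left out. The share of the genes high in Inland with a member nearby was 58.8% within 25 and 90.0% within 100 identifiers, against 4.96% and 11.9% of all expressed genes, distances chosen after the data were seen. For the 15 members with 0 Inland counts, counting error allows up to 3 counts in 1 Inland library taken alone. Counts of 0 in all Inland libraries together allow less per library.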
